A study of Mus musculus with 11 samples.

Results

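The 8 homeobox genes *Alx1*, *Alx4*, *Prrx1*, *Prrx2*, *Pitx1*, *Pitx3*, *Shox2* and *Msx1* were grouped as craniofacial and limb regulators, and H3K27me3 was examined over them in 4 regions of the embryonic mouse forebrain. They are 8 of 21755 protein-coding genes on chromosomes 1 to 19 and X. The rule that set them used names and known function, not values in the lists, but they were chosen with earlier results of these data known. Each gene was taken as a window of its body (the annotated span from first to last base) and 10 kb either side, in GRCm38 (mm10). The covered percent is the share of a window's bases that lies under peaks, and the width of the widest peak touching a window describes the size of its domain.

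The regions were the medial (MGE), caudal (CGE) and lateral (LGE) ganglionic eminences, which are ventral neurogenic regions, and the cortex (CTX), dissected as somatosensory cortex. All groups came from wild-type C57BL/6J embryos with no treatment named, and the labels tell them apart by region alone. The study places CUT&Tag at E12.5, while the labels name E12.5 and E14.5 embryos together and give no age for single samples. CUT&Tag uses an antibody, here against H3K27me3, to bring a transposase to marked nucleosomes, so that the DNA beside them is tagged and sequenced. The 11 samples were 2 from MGE and 3 each from CGE, LGE and CTX, but the labels give each region 2 replicate numbers, and in CGE, LGE and CTX the number 2 is carried by 2 samples that may share a source. Tissue of several embryos was pooled, and all samples of a region were merged by the authors ahead of broad peak calling. Each region is therefore 1 list, no value below has a replicate error or a test, and differences between lists are given as descriptions. The labels mention nuclei of the regions combined in equal numbers, although each sample carries 1 region name, and the lists hold no expression values by which a region could be checked.

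H3K27me3 is placed by Polycomb repressive complex 2, whose catalytic subunit is EZH2 or EZH1, and is read by Polycomb repressive complex 1. In vertebrates it gathers over CpG-rich starts of developmental regulators that a tissue keeps silent, often as wide domains over transcription factor genes. Homeodomain proteins bind DNA through a conserved helix-turn-helix fold. The *Alx* and *Prrx* genes act in craniofacial and limb mesenchyme, *Pitx1* specifies hindlimb identity and acts in the pituitary and the jaw, and *Shox2* acts in proximal limb bones and the sinoatrial node. *Msx1* is needed for teeth and palate. *Pitx3* is known from the lens and from dopamine neurons of the midbrain. Some of the other genes also have neural roles, such as *Shox2* in spinal interneurons and *Msx1* in the dorsal neural tube.

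The start of *Prrx1* had the least coverage of the 8 and those of 6 other genes had the most. Of the sequences in RefSeq's promoter table, 5 of the 8 genes had an entry, and *Alx1*, *Alx4* and *Pitx1* had none. The 250 bases before the RefSeq start (GRCm38.p6, 5′ to 3′ on the gene's strand) are shown with CpG dinucleotides, the sequence feature most closely tied to Polycomb binding in mammals, in capitals. *Prrx1* (chr1:163313651-163313900, minus strand) is shown as the start without a peak and *Prrx2* (chr2:30845117-30845366, plus strand) as a paralogue with a fully covered start. *Msx1* (chr5:37824586-37824835, minus strand) is the start whose coverage varied between lists, and was chosen after its values were seen.
Prrx1: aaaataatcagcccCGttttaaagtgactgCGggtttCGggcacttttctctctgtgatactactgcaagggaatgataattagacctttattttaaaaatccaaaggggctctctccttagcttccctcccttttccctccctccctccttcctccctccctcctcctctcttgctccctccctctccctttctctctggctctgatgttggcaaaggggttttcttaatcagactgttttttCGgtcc
Prrx2: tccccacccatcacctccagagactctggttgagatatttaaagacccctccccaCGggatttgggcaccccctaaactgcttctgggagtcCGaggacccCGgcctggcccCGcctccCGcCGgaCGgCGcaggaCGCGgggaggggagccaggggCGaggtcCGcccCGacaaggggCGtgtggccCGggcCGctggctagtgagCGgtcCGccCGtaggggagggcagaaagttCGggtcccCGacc
Msx1: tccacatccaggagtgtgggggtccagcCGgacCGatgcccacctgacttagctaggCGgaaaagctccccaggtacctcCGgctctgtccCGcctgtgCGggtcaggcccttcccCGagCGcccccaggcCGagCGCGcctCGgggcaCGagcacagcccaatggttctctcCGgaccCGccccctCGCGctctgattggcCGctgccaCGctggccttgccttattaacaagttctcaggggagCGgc
These stretches hold 4 CpG dinucleotides in *Prrx1*, 21 in *Prrx2* and 20 in *Msx1*, against a median of 6 over 32851 promoters of the same length. As many or more were found in 62.2% of promoters for *Prrx1*, 16.3% for *Prrx2* and 17.9% for *Msx1*. Peaks covered 0% of the *Prrx1* stretch and 100% of the *Prrx2* stretch in all 4 lists. For *Msx1* they covered 100% in MGE, 82.0% in LGE, 94.0% in CGE and 57.2% in CTX. The unprinted promoters of *Pitx3* and *Shox2* hold 16 and 11 CpG dinucleotides and were fully covered in every list.

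All 8 windows carried H3K27me3 in every region, and their levels differed far more between genes than between regions. Windows with at least 1 covered base made up 43.3% of protein-coding genes in MGE, 44.7% in LGE, 46.0% in CGE and 47.2% in CTX. In all 4 lists together, 7858 of the 21755 protein-coding genes had one. The median covered percent of the 8 genes was 23.1% in MGE, 23.2% in LGE, 23.6% in CGE and 23.6% in CTX. Over all protein-coding genes the median was 0% in each list, and over genes with a covered base it ran from 2.01% in MGE to 3.14% in CGE. The lists differ in size, from 15384 peaks over 24.5 Mb in MGE to 19196 peaks over 32.9 Mb in CGE, and LGE (26.4 Mb) and CTX (31.2 Mb) between them. They hold no read counts, so the depth behind a peak is unknown, and the size of a list can move with its depth. The study states a sequencing depth for each replicate number of a region. For number 2 it was greatest in CGE, followed by CTX, LGE and MGE, the order of the covered Mb. For number 1 it was greatest in MGE. Each list was called on merged samples, and the depth summed over both numbers ran from CGE through CTX and LGE to MGE. This is again the order of the covered Mb, so the lists differ in summed depth as well as in region. Whether depth set the size of a list was not tested. When the lists were held to equal numbers of peaks or equal covered bases, none of the 32 covered percents of the 8 genes moved by over 1.5 times, and each gene kept its highest and its lowest list. These limits only drop the weakest peaks of a list and leave the edges of the others unchanged. They therefore cannot show how depth bears on the width or the splitting of a domain.

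**Figure D1:**
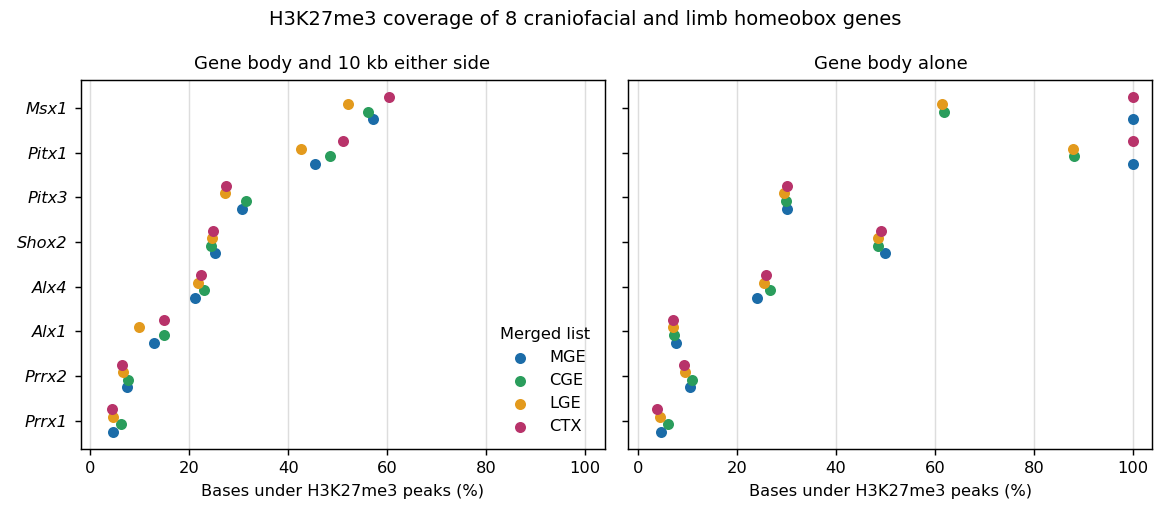
Percent of bases under H3K27me3 peaks (x axis) for each of the 8 genes (y axis), over the gene body with 10 kb either side (left) and over the gene body alone (right), with 1 point for each merged list. The genes run from 4.32% to 60.3% over the wider window, and on the body alone *Msx1* and *Pitx1* reach 100% in MGE and CTX only.

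By covered percent *Msx1*, whose window of 24099 bases is the shortest, was the highest of the 8 genes in every list. By covered bases *Pitx1* was above *Msx1* in every list. The values were 14151 and 13761 in MGE, 13255 and 12562 in LGE, 15064 and 13536 in CGE, and 15914 and 14536 in CTX. The *Msx1* window (chromosome 5, 37810485 to 37834583, minus strand) had 57.1% in MGE, 52.1% in LGE, 56.2% in CGE and 60.3% in CTX. At most 0.211% of protein-coding genes were covered to the same degree or more in any list. *Pitx1* (chromosome 13, 55815051 to 55846192, minus strand) came next, with 45.4% in MGE, 42.6% in LGE, 48.4% in CGE and 51.1% in CTX. Both genes were highest in CTX and lowest in LGE, by 8.19 percentage points for *Msx1* and 8.54 for *Pitx1*. With peaks less than 3 kb apart joined the order turned, and both were lowest in MGE, at 67.3% for *Msx1* and 45.4% for *Pitx1*, and highest in CGE, at 76.7% and 58.2%. In *Msx1* the joined LGE and CTX values also came to 76.7%. With a flank of 20 kb *Msx1* was lowest in MGE (31.2%) by a small margin to LGE (31.3%).

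*Pitx3*, *Shox2* and *Alx4* held a middle place by covered percent. The *Pitx3* window (chromosome 19, 46125685 to 46158326, minus strand) had 30.7% in MGE, 27.3% in LGE, 31.4% in CGE and 27.5% in CTX, so that MGE and CGE lay above LGE and CTX as called. The range of 4.09 points fell to 0.680 with peaks less than 3 kb apart joined and to 0.475 on the gene body alone. *Shox2* (chromosome 3, 66961727 to 66991771, minus strand) had 25.1% in MGE, 24.6% in LGE, 24.4% in CGE and 24.8% in CTX, the smallest range of the 8 genes at 0.785 percentage points. *Alx4* (chromosome 2, 93632384 to 93691339, plus strand) had 21.1% in MGE, 21.7% in LGE, 22.9% in CGE and 22.3% in CTX. Its neighbours in the order of regions were 0.560 to 0.611 points apart.

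The lowest covered percents belonged to *Alx1* and to the paired genes *Prrx1* and *Prrx2*, whose windows are the longest of the 8 with those of *Alx4*. By covered bases *Alx1* was above *Shox2* in CGE (7677 against 7317) and CTX (7607 against 7453), and below it in MGE and LGE. *Alx1* (chromosome 10, 102988707 to 103040215, minus strand) had 12.9% in MGE, 9.81% in LGE, 14.9% in CGE and 14.8% in CTX. Its CGE and CTX values were 0.136 points apart, and LGE was lowest by 3.13 points, but with peaks less than 3 kb apart joined the range fell from 5.09 to 0.843 points. *Prrx2* (chromosome 2, 30824972 to 30891251, plus strand) had 7.32% in MGE, 6.65% in LGE, 7.52% in CGE and 6.43% in CTX. *Prrx1* (chromosome 1, 163235119 to 163323710, minus strand) had 4.50% in MGE, 4.56% in LGE, 6.09% in CGE and 4.32% in CTX, with LGE 0.0553 points above MGE and MGE 0.181 points above CTX. Between 17.6% and 21.1% of protein-coding genes were covered as much as *Prrx1* or more, depending on the list.

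Over the 4 lists, no member varied by 10 percentage points or more, which was the case for 2.02% of all protein-coding genes and for 3.62% of the 12122 genes whose window had a covered base. CGE was the highest list for 5 genes (*Alx1*, *Alx4*, *Prrx1*, *Prrx2* and *Pitx3*), CTX for *Pitx1* and *Msx1*, and MGE for *Shox2*. LGE was the lowest for *Alx1*, *Pitx1*, *Pitx3* and *Msx1*, CTX for *Prrx1* and *Prrx2*, MGE for *Alx4* and CGE for *Shox2*. Among the 7858 protein-coding genes with a covered base in all 4 lists, the highest was CGE in 48.0%, CTX in 27.0%, LGE in 12.6% and MGE in 12.0%, so that 5 of 8 for CGE was near the background. The lowest was MGE in 44.3%, LGE in 25.7%, CTX in 22.6% and CGE in 6.57%. With peaks less than 3 kb apart joined, 5 of the 8 genes had the same highest list and 3 the same lowest list as before, and MGE in place of LGE was the lowest for *Pitx1*, *Pitx3* and *Msx1*.

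Positions along each gene are given from the RefSeq start, the most 5′ start of its curated transcripts, with downstream positive. This start and the 5′ end in GENCODE lie 10395 bases apart for *Prrx2*, 4767 for *Pitx1* and 1438 for *Alx1*, and at most 60 bases apart for the other 5 genes. For *Prrx2* the choice decides the call: the 2 kb upstream of the GENCODE end held 0% covered bases in every list, whereas the RefSeq start lay inside a peak in all 4.

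The gene starts were covered in all lists in 7 of the 8 genes. A window of 300 bases from 250 before to 50 after the start was at least 50% covered in all 4 lists in 14.4% of the 20923 genes with a curated RefSeq transcript. *Alx1*, *Alx4*, *Prrx2*, *Pitx1*, *Pitx3* and *Shox2* had 100% in every list. *Msx1* had 100% in MGE, 85.0% in LGE, 95.0% in CGE and 64.3% in CTX, and the edge of its peak lay 263, 205, 235 and 143 bases upstream of the start in the same order. In CTX the next peak upstream of *Msx1* was 2398 bases away, against 1246 in MGE, 1352 in CGE and 1223 in LGE. The 2 kb upstream of the *Msx1* start were covered over 7.15% in CTX, compared with 37.7% in MGE, 32.4% in CGE and 38.9% in LGE, although CTX had the highest coverage of the whole window.

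*Prrx1* was the exception, with 0% at its start in each list. The start lay in a gap between 2 peaks that measured 1836 bases in MGE, 1859 in LGE, 1644 in CGE and 2150 in CTX. The downstream peak began 950 bases past the start in MGE, 1011 in LGE, 983 in CGE and 1219 in CTX, and it was mostly intronic, with 2798 of its 3104 bases in an intron in MGE. The upstream peak was narrower, at 884 bases in MGE, 1035 in LGE, 1284 in CGE and 1179 in CTX. By q-value the widest *Prrx1* peak was least significant in CTX, with a −log10 q of 5.65 against 42.7 in CGE, while its fold enrichment was 2.41 in CTX and 2.05 in CGE. When peaks less than 3 kb apart were joined, the *Prrx1* start was covered as well.

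**Figure D2:**
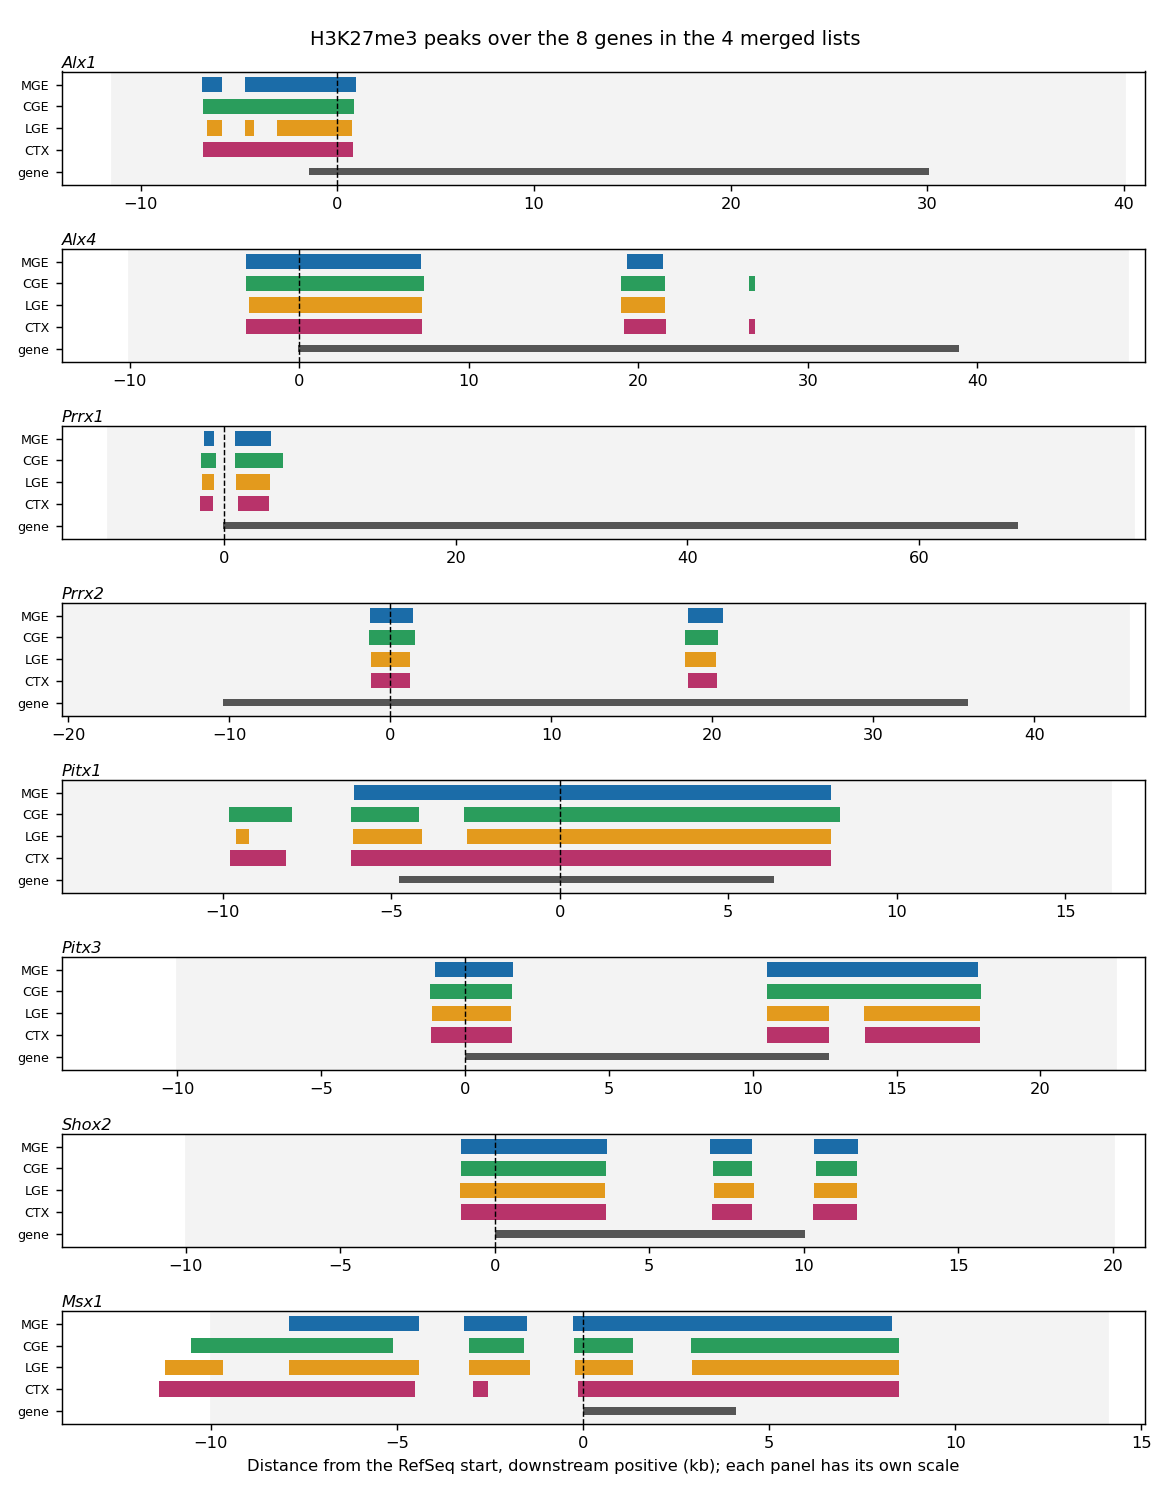
Peaks of the 4 merged lists (coloured bars) over the window of each gene (grey shading), against the distance from the RefSeq start in kb (x axis, downstream positive, a separate scale for each gene), with the GENCODE gene body in dark grey and the start as a dashed line. The start lies under a peak in every list for 7 genes and between 2 peaks for *Prrx1*, and the domains of *Pitx1* and *Msx1* as called are broken in CGE and LGE.

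As called, the widest domain belonged to *Pitx1*. It measured 14151 bases in MGE and 14239 in CTX, ranking 5 by width among all peaks of both lists, and 11158 bases in CGE (rank 18) and 10814 in LGE (rank 12). In MGE and CTX the peak ran from 6.10 or 6.18 kb upstream to 8.05 kb downstream of the start and covered the whole gene body. In CGE and LGE, a gap of 1331 and 1333 bases cut the domain at 4.17 to 2.84 and 4.09 to 2.76 kb upstream of the start, within the GENCODE body but in none of its exons. The smaller piece beyond the gap was the strongest peak of the window in these lists, with a −log10 q of 58.1 in CGE and 54.7 in LGE. The antisense RNA gene *Gm47071* and the long noncoding RNA gene *Gm28760* overlap this domain, and since peaks have no strand, the modification cannot be assigned to one of these genes.

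*Msx1* was also split in CGE and LGE as called. Its widest peak was 8574 bases in MGE and 8625 in CTX, running from just upstream of the start through the gene to 8.31 and 8.48 kb downstream. In CGE and LGE a gap of 1564 and 1582 bases split the peak over the gene body, which left widest peaks of 5583 and 5563 bases that lay in the 3′ part of the gene and beyond it. The gap held the whole intron of *Msx1*, 1002 bases, with 562 exon bases in CGE and 580 in LGE. The gene body was thus covered over 100% in MGE and CTX but over 61.8% in CGE and 61.4% in LGE. The *Pitx1* body was likewise covered over 100% in MGE and CTX, and over 88.1% in CGE and 88.0% in LGE. With peaks less than 3 kb apart joined, these gaps closed and the widest peaks no longer divided MGE and CTX from CGE and LGE. *Pitx1* then measured 14151 bases in MGE, 14185 in LGE, 18136 in CGE and 17843 in CTX. *Msx1* was wider than *Pitx1* in every list when joined, at 16212 bases in MGE, 19722 in LGE, 19019 in CGE and 23206 in CTX. Without joining, *Pitx1* and *Msx1* were the members whose body coverage ranged by 10 points or more, as did 5.81% of all protein-coding genes.

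*Alx1* and *Pitx3* were split in other regions. The *Alx1* domain was 1 peak of 7677 bases in CGE and 7607 in CTX, both ending at the same base 6.83 kb upstream of the start. In MGE a gap of 1173 bases left a peak of 5614 bases, and in LGE gaps of 1172 and 1180 bases left 3 pieces, the widest of 3830 bases. All of these pieces but the part up to 0.938 kb downstream lay upstream of the RefSeq start, partly over the long noncoding RNA gene *Gm17028*, and the remaining body of *Alx1* had no peak in any list. At *Pitx3* the widest peak, 7321 bases in MGE and 7433 in CGE, lay over the 3′ end of the gene and its neighbour *Elovl3*, which encodes a fatty acid elongase. A gap of 1230 bases in LGE and 1245 in CTX split it to leave 4026 and 4011 bases, and coverage of the *Elovl3* body was 100% in MGE, 67.6% in LGE, 100% in CGE and 67.2% in CTX. The upstream edge of the gap fell on the same base in LGE and CTX.

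The start of *Pitx3* carried a separate peak that was the most significant of its window. It was 2708 bases wide in MGE, 2745 in LGE, 2818 in CGE and 2802 in CTX, with a −log10 q of 76.5, 119, 148 and 128 in this order. Of the peaks of each list, from 0.260% in MGE to 0.688% in LGE had a q-value as small or smaller.

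*Alx4* and *Shox2* had the same layout in every region, apart from a weak further *Alx4* peak called in CGE and CTX only. The *Alx4* start peak was 10342 bases wide in MGE, 10204 in LGE, 10502 in CGE and 10364 in CTX, from about 3 kb upstream to over 7 kb downstream. A second *Alx4* peak of 2126 to 2610 bases lay about 19 kb downstream in all 4 lists, in an intron that also lies within the overlapping, convergent gene *Ext2*, which acts in heparan sulfate synthesis. Another of 399 bases in CGE and 387 in CTX was weak, with a −log10 q of 4.51 and 1.63. *Shox2* had 3 peaks in each list, and the widest, at its start, measured 4744 bases in MGE, 4680 in LGE, 4693 in CGE and 4715 in CTX. Its narrowest peaks, in the gene and just past its 3′ end, were of 1283 to 1432 bases, and the one past the 3′ end was the strongest, with a −log10 q from 66.5 in MGE to 132 in LGE. Within its own list, peaks with a q-value as small or smaller made up 0.579% in MGE, 0.374% in LGE, 1.40% in CGE and 0.506% in CTX.

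*Prrx2* also had a constant layout. A start peak of 2641 bases in MGE, 2459 in LGE, 2893 in CGE and 2440 in CTX was followed by an intronic peak of 1820 to 2214 bases, more than 18 kb downstream. *Prrx2* had the narrowest widest peak of the 8 genes in each list. The fold enrichment of this peak over background ran from 3.39 in CGE to 3.75 in LGE. That of the widest *Pitx1* peak was lower, from 1.60 to 1.73. These peaks differ widely in width, and their fold enrichments were not matched for it. The neighbours *Asb6* and *Ptges* had no covered base in the window.

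**Figure D3:**
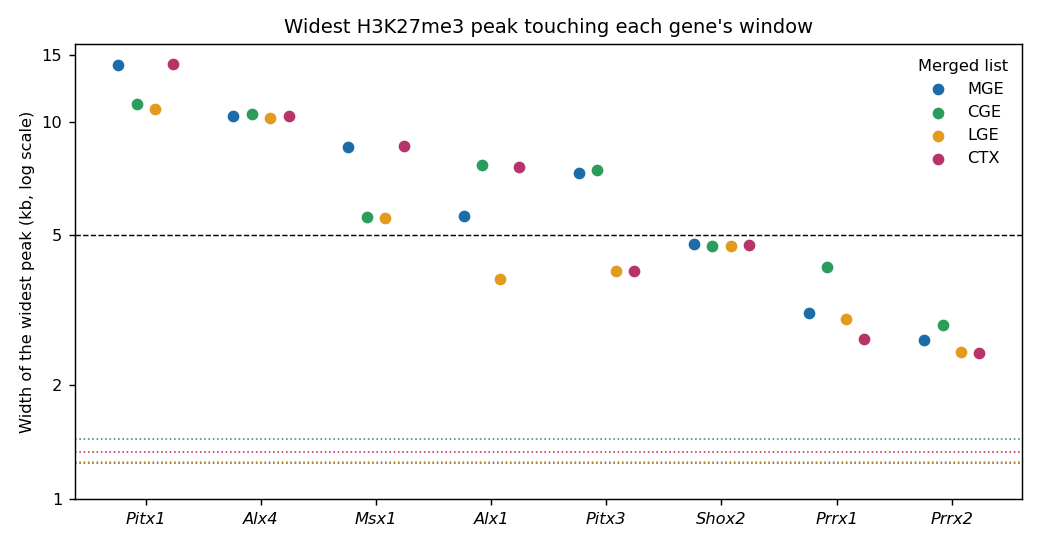
Width in kb (y axis, log scale) of the widest H3K27me3 peak touching each gene's window (x axis), with 1 point for each merged list, the median peak width of each list as a dotted line and 5 kb as a dashed line. *Pitx1*, *Alx4* and *Msx1* lie above 5 kb in all 4 lists, while *Alx1* and *Pitx3* cross it between lists.

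Peaks of 5 kb or wider touched 5 of the 8 windows in MGE (*Alx1*, *Alx4*, *Pitx1*, *Pitx3* and *Msx1*), where 1.77% of protein-coding genes had one. The same 5 genes had one in CGE, against 2.22% of genes. In LGE it was 3 genes (*Alx4*, *Pitx1* and *Msx1*) against 1.61%, and in CTX 4 genes (these 3 and *Alx1*) against 1.87%. *Alx4*, *Pitx1* and *Msx1* had such a peak in all 4 lists, as did 1.08% of protein-coding genes. With peaks less than 3 kb apart joined, 6 of the 8 genes had one in all 4 lists, against 2.49% of protein-coding genes with the same joining, since the gaps at *Alx1*, *Pitx3* and *Prrx1* closed. *Shox2*, at 4680 to 4744 bases, lay just under this limit in every list. The median width over all peaks of a list, from 1248 bases in MGE to 1445 in CGE, was below the widest peak of every member. This sets the widest of the peaks touching a window against single peaks, so it shows nothing particular to the members.

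Most of the covered sequence was common to the regions. Peaks of any list covered 82692 bases of the 8 windows, and 63819 of these, or 77.2%, were covered in all 4, against 33.0% of covered bases over the whole series. The series value takes in all peaks and was not matched to the 8 windows by peak width or strength. The share was 95.1% for *Shox2*, 90.7% for *Alx4*, 84.7% for *Pitx3*, 79.3% for *Prrx2* and 77.7% for *Pitx1*. It was lower for *Alx1* at 64.5%, *Msx1* at 62.6% and *Prrx1* at 62.3%. At *Prrx1*, 1230 bases were covered in CGE alone, the largest such number for any list among the 8 genes.

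The bases covered in all regions were rich in CpG dinucleotides. They held 36.3 CpG per kb over the 8 windows together, against 19.6 in bases covered in 1 to 3 lists and 10.2 in bases covered in none. The corresponding values over the genome were 37.3, 20.3 and 8.01 per kb, in the same order as in the 8 windows together, although in *Alx4* and *Prrx2* bases covered in none held more CpG than those covered in 1 to 3 lists. *Shox2* had the highest value in shared bases at 45.2 per kb. *Prrx1* had the lowest at 26.7, and was the one gene where bases covered in 1 to 3 lists held more, at 30.8. The gap in *Msx1* held 26.2 CpG per kb in CGE, the gap upstream of *Pitx1* 19.5 in CGE, that beside *Pitx3* 15.4 in LGE and that upstream of *Alx1* 5.12 in MGE, each below the shared bases of the same gene.

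**Figure D4:**
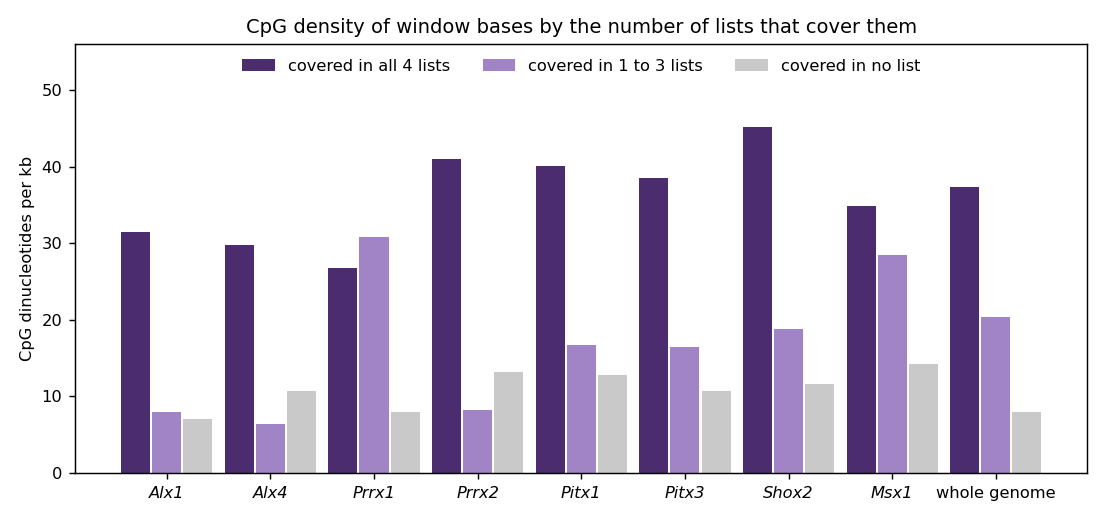
CpG dinucleotides per kb (y axis) in the bases of each gene's window (x axis) covered by peaks in all 4 lists, in 1 to 3 lists and in none, with the whole genome at the right. Shared bases hold the most CpG in 7 genes and in the genome, and *Prrx1* is the exception with 26.7 in shared bases and 30.8 in partly shared ones.

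Around the start, the 1000 bases centred on it held 26.0 CpG per kb at *Prrx1*, the lowest value of the 8 and the one start without coverage. The other genes had from 52.0 at *Alx1* to 92.0 at *Pitx1*, with 88.0 at *Prrx2* and 65.0 at *Msx1*. With 1 gene on one side, this is a description of *Prrx1* and not a relation across genes.

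*Msx2* and *Msx3*, paralogues of *Msx1*, were covered in all 4 lists as well. *Msx2*, which acts with *Msx1* in skull and limb, had 48.0% in MGE, 38.8% in LGE, 42.9% in CGE and 43.5% in CTX, and was lowest in LGE like *Msx1*. Its widest peak was over 5 kb in MGE (5504 bases) and measured 4741 to 4849 bases in the other lists. *Msx3*, an *Msx* gene of the dorsal neural tube, had 27.6% in MGE, 34.0% in LGE, 29.6% in CGE and 31.1% in CTX. It had a peak over 5 kb in all 4 lists, of 5397 to 5957 bases. Neither gene ranged by 10 points, with 9.23 for *Msx2* and 6.45 for *Msx3*.

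Of 25 other regulators known from craniofacial, mesenchymal or limb development, all 25 had covered bases in all 4 lists, as did 7858 of 21755 protein-coding genes. Their median covered percent was 32.3% in MGE, 27.6% in LGE, 33.7% in CGE and 32.2% in CTX. A peak of 5 kb or wider in every list was found for 11 of them, against 1.08% of protein-coding genes. In 4 of them the range reached 10 points, against 2.02% of protein-coding genes and 3.62% of those whose window had a covered base in any list. *Lmx1b*, which patterns the dorsal limb and also acts in midbrain and hindbrain neurons, had 26.1% in MGE, 38.1% in LGE, 33.0% in CGE and 44.2% in CTX. *Twist2*, a mesenchymal regulator, had 4.57% in MGE, 4.51% in LGE, 5.25% in CGE and 16.7% in CTX. *Foxd1* was lowest in LGE (34.1%) and highest in CGE (46.9%), and *Uncx* lowest in CTX (52.7%) and highest in CGE (63.9%).

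**Figure D5:**
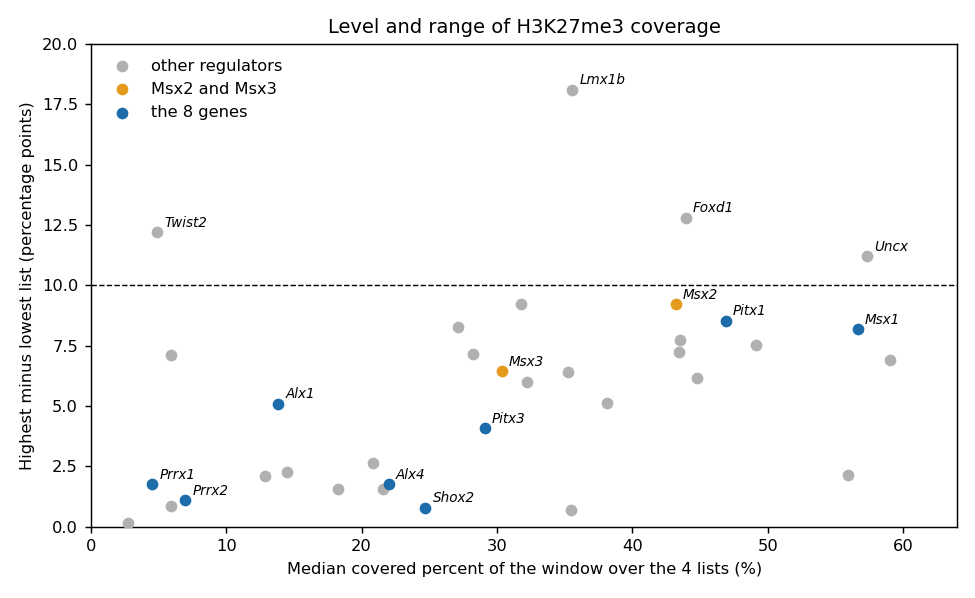
Median covered percent over the 4 lists (x axis) against the difference between the highest and the lowest list in percentage points (y axis) for the 8 genes, *Msx2* and *Msx3*, and the 25 other regulators, with a dashed line at 10 points. The 8 genes, *Msx2* and *Msx3* stay below the line, and *Lmx1b*, *Foxd1*, *Twist2* and *Uncx* lie above it.

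By the distance between their 4 covered percents, the protein-coding gene nearest to *Msx1* was *Tlx3*, another homeobox gene, at 3.46 points, and the gene nearest to *Shox2* was *Foxd4*, a forkhead gene, at 1.29 points. *Pitx1* was nearest to *Jak3*, a cytokine receptor kinase gene, at 2.56 points, and *Pitx3* to *Rtn4rl2*, a Nogo receptor family gene, at 2.58. For the other genes the nearest were *Ap3b2* for *Alx1*, *Ramp2* for *Alx4*, *Cnp* for *Prrx1* and *Ppbp* for *Prrx2*, at 0.311 to 1.26 points. With 4 values a gene, such likeness is a match of levels.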

How the data were processed

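The CUT&Tag peak lists of MGE, CGE, LGE and CTX were analysed, with samples grouped by the region in their labels. With Bowtie2 the authors aligned reads to GRCm38 (mm10), then removed those in blacklisted regions and PCR duplicates (Picard), used samtools to merge replicates by region, and ran MACS for broad peaks. Its version and control are not given in the sources used here. The deposited lists give each peak's position, its fold enrichment (a ratio to background) and the −log10 of its q-value, as MACS wrote them. Neither reads nor replicates are in the lists, so the depths that the study states could not be tied to single peaks. No interval or replicate comparison was possible, and no test was run.

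Gene bodies were taken from GENCODE M21 and starts from curated RefSeq transcripts of GRCm38.p6, and 10 kb was added either side. Peaks on 20 chromosomes were used. Covered percent, widest peak (broad at 5 kb), shared bases, CpG density and coverage of the 300 bases at the start were computed in Python 3.11.15 with numpy 2.4.6, and the code was tested on simulated peaks. Named were the 8 genes, the paralogues *Msx2* and *Msx3*, those of 25 other regulators that ranged by 10 points or had no covered base, overlapping genes, and for each member the gene with the nearest 4 values. Some genes covered by the naming rule are not reported here. The members and lists were chosen with earlier results of these data known.

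Alternatives were a q-value under 0.001, peaks under 3 kb apart joined, equal numbers of strongest peaks, equal covered bases, the gene body without flank, and a flank of 20 kb. The span of the RefSeq transcripts was added after the data had been seen.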

Additional observations from a re-analysis of the deposited data

How the results depend on the processing

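For the 8 genes, covered percents and their medians, widest peaks, ranges, highest and lowest lists and the counts below were recomputed under 7 alternatives. The count of covered starts was recomputed only under the alternatives that change the peaks, not the window. Shared bases, CpG densities, shared edges, nearest genes and the values of paralogues, other regulators and overlapping genes were not recomputed. With peaks under 3 kb apart joined, 6 genes in place of 3 had a peak of 5 kb or wider in all 4 lists, and 1 gene in place of 0 ranged by 10 points or more (*Pitx1*, 12.8 points). Over the gene body without flank 2 genes did (*Msx1*, 38.6 points, and *Pitx1*), and over the RefSeq span 1 did (*Pitx1*, 10.1). All other counts of members stayed within 1.5 times. Of the 32 covered percents, 0 moved by over 1.5 times with a q-value under 0.001, equal peak numbers, equal covered bases or the RefSeq span. By that measure 1 rose with joined peaks and 13 moved with the gene body alone (10 up, 3 down). With a flank of 20 kb, 16 fell by over 1.5 times. Of the 32 widest peaks, 12 grew by over 1.5 times with joined peaks and 0 moved by that much otherwise. Each of the 8 genes kept its highest and lowest list with a q-value under 0.001, equal peak numbers, equal covered bases and the RefSeq span, while joined peaks left 5 highest and 3 lowest lists, the gene body alone 4 and 7, and a flank of 20 kb 7 and 7. Ranges fell for *Alx1* (0.843 joined, 0.530 on the body) and *Pitx3* (0.680, 0.475, and 2.54 with 20 kb), and rose for *Prrx1* (3.10 with a q-value under 0.001) and for *Shox2* on the body (1.46). No replicate could be left out, and no paired analysis was possible because the replicates of each region were merged before peaks were called.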

Other observations

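Some peak edges fell on the same base in lists of different regions. Of the 158 peak edges in the 8 windows, 30 lay on the same base as an edge of the same side in another list, and over all peaks of the series 12599 of 140432 (8.97%) did. The share was highest for *Shox2*, where it was 9 of 24 edges, followed by *Alx1* with 4 of 14, and it was 0 of 16 for *Prrx1*. This count was chosen after the data had been seen.

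The genes that overlap the 8 windows differed widely in coverage. *Rsrc1*, which starts beside *Shox2* on the other strand, was covered over 14.3% of its part of the window in MGE, CGE and CTX and over 14.4% in LGE. *Ext2* beside *Alx4* had 7.01% in MGE, 8.61% in LGE, 9.90% in CGE and 9.27% in CTX. *Gbf1*, which lies upstream of *Pitx3*, had no covered base in its part of the window in any list. Of the noncoding genes inside *Prrx1*, *Gm37644* was covered over 22.6% in CGE and had no covered base in the other lists, and *Gm20471* and *Gm26523* had none in any list.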
